A study of Mus musculus with 11 samples.

Results

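Of the sites bound by POU3F1 in mouse epiblast stem cells (EpiSCs), those at which none of 4 further transcription factors had a peak were examined. They were chosen by the peak lists themselves, as POU3F1 peaks on chromosomes 1 to 19 and X that were at most 2000 bp wide and shared no base with an EpiSC peak of ZIC2, OTX2, SOX2 or POU5F1. This gave 64559 sites, here called POU3F1-alone sites, which was 57.3% of the 112753 peaks of the POU3F1 list and 66.0% of the 97776 peaks that met the limits on chromosome and width. The other 33217 of these overlapped at least 1 further factor, of which 19232 overlapped POU5F1 only, 5235 SOX2 only, 3283 OTX2 only, 518 ZIC2 only and 4949 at least 2 factors. Left out were 66 peaks on other sequences and 14911 wider peaks, of which 35.2% had no further factor.

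The data are ChIP-seq peak lists from feeder-free EpiSCs of strain 129/Sv, cells derived from the epiblast after implantation, grown with activin and Fgf2. In each culture, 1 factor carrying a peptide for biotinylation was made from a transiently transfected pCAGGS-BLRP-BirA vector, and its chromatin was pulled down on streptavidin. The same 5 factors were also profiled in EpiSCA cultures, which had been without activin for 18 h and are called activin-free here. There was 1 library per factor and culture and 1 sequenced input control, which the sources name as the reference for peak calling. Whether the activin-free lists were called against this EpiSC input is not given in the sources used here, and this bears on every share in those lists. No value therefore has a replicate error, and differences in peak calling between libraries cannot be told apart from differences between cultures. Intervals below are 95% Wilson intervals for shares and Newcombe intervals for differences in percentage points. They cover counting error only, and neighbouring peaks are not independent of each other.

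POU3F1 and POU5F1 are both POU proteins, which hold DNA with a POU-specific domain and a homeodomain joined by a linker. Their classical site is the octamer ATGCAAAT, and pairs of POU proteins can also sit on longer palindromic sites built of the same pieces. POU5F1 is a core factor of pluripotent cells and often binds next to SOX2, whereas POU3F1 is made in the epiblast after implantation and in neural precursors. Removal of activin leads EpiSCs towards the anterior neural plate, and OTX2 and ZIC2 are further factors of the epiblast and anterior neural tissue.

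Examples of the sites follow, each the 200 bp around a peak midpoint on the plus strand of mm9. The first 3 are shown as high-scoring examples of the sites with an exact octamer and a POU5F1 peak after removal of activin, and capitals mark the octamer or its reverse complement.
chr1:171805587-171805786: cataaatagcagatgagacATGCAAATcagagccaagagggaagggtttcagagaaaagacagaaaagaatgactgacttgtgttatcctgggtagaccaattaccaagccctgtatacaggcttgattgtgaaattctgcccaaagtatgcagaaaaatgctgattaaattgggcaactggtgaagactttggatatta
chr6:75958060-75958259: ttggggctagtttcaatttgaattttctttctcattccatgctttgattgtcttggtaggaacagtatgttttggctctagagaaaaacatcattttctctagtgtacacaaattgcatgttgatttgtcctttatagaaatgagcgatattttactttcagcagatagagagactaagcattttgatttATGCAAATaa
chr10:32385337-32385536: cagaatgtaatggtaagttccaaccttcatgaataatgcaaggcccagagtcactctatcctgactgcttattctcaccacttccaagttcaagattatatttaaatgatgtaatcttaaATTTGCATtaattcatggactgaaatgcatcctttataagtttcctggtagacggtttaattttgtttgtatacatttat
The next 2 had an octamer and no activin-free POU5F1 peak.
chr15:24796653-24796852: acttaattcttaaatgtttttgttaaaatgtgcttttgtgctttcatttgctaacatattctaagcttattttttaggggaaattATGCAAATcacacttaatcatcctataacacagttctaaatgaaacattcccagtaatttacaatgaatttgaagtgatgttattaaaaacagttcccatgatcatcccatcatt
chr9:84446294-84446493: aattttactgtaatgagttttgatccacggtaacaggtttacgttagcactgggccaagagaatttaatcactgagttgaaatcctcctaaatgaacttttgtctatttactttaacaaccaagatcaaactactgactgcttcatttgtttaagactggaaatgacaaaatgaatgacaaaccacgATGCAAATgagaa
The last 2 had the highest scores of the sites without an octamer in the window. Capitals mark the 8-base sequences most over-represented at POU3F1-alone sites, on either strand, described further on, and the first of the pair holds none of them.
chr19:21677822-21678021: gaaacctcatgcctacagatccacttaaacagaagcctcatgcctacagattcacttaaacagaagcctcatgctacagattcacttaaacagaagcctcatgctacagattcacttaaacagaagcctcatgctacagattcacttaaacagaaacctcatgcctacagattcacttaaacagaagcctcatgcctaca
chr15:29119937-29120136: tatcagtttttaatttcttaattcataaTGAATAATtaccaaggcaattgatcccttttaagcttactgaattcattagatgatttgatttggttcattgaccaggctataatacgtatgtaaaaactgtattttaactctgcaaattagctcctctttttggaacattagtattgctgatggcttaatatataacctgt

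The octamer lay at position 20 of the first window and at position 191 of the second. All 5 octamer sites shown were intergenic, with POU3F1 scores of 1525.6, 1251.3, 1250.5, 1376.1 and 1282.3 in EpiSCs and of 1838.2, 1706.9, 1720.3, 2179.8 and 2245.3 in activin-free cells. The activin-free POU5F1 peaks at the first 3 had far lower scores, of 88.6, 250.1 and 86.5. The window on chromosome 19 is a tandem repeat, in which the most frequent run of 12 bases occurred 6 times. Its peak, chr19:21677207-21678637 in an intron of 1110059E24Rik (ENSMUSG00000035171.2), had the highest score of all POU3F1-alone sites, 2754.5, and its activin-free POU3F1 peak had a score of 2405.8. Whether reads of several repeat copies contributed to this score was not tested.

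The score is the p-value of the peak on a -10 log10 scale, as MACS writes it, and 50 is its lowest value in these lists. POU3F1-alone sites had a median score of 138.6, with the middle of the distribution from 81.8 to 257.3. The median was 222.7 at the POU3F1 peaks with any further factor and 246.5 at those with POU5F1 only. They were also narrower, with a median width of 888 bp compared with 1069 bp and 1096 bp. These values took part in the choice of the sites and are given as a description. Among the 10 highest-scoring sites, at most 1 per Mb, the scores ran from 1626.5 to 2754.5, 8 were intergenic and 2 intronic, 1 had an exact octamer, all had an activin-free POU3F1 peak and 7 an activin-free POU5F1 peak. They included chr1:25128686-25130250 in an intron of Bai3 (ENSMUSG00000033569.10), a receptor gene of the nervous system, and chr10:29136588-29138114, which lay 35.6 kb from Rspo3 (ENSMUSG00000019880.9), a Wnt signalling gene. The POU3F1 peak on Pou3f1 itself, which can arise from the vector, overlapped a further factor and was not among the sites.

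The limits that defined the sites cut through a continuous distribution. The 1051 sites within 100 bp below the upper limit on width had a median score of 552.1, and the 806 otherwise fitting peaks up to 100 bp above it one of 569.3. A further factor lay within 100 bp of 1434 sites, whose median score was 130, and 1267 peaks were left out for sharing at most 100 bp with a further factor, with a median of 133.7. The median distance to the nearest peak of any further factor was 3.34 kb, and 20.4% of sites had one within 1 kb.

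To see which of these sites were bound in cells without activin, they were compared with the 5 activin-free lists, which did not enter their choice. An activin-free POU3F1 peak overlapped 50007 of the 64559 sites, or 77.5% (77.1 to 77.8%). The background, the share over all eligible POU3F1 peaks, was 80.0%. The POU3F1-alone sites were thus slightly less often bound again than the POU3F1 peaks with any further factor, of which 85.0% had an activin-free POU3F1 peak (a difference of -7.52 points, -8.02 to -7.02). No such difference was detected between peaks of like score. When all eligible peaks were divided by score into 4 bands of equal size, 49.8, 76.0, 94.6 and 99.8% of the POU3F1-alone sites had an activin-free POU3F1 peak, from the lowest to the highest band. The POU3F1 peaks with a further factor gave 49.97, 75.5, 94.4 and 99.8%, and the interval of the difference included 0 in each band. The widest of these intervals ran from -1.67 to 1.30 points. Against the peaks with POU5F1 only, the POU3F1-alone sites were slightly lower in the lowest band, by -3.54 points (-5.48 to -1.58), and in the next, by -2.57 points (-4.02 to -1.07), and not detectably different in the upper 2 bands.

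An activin-free POU5F1 peak was present at 21209 POU3F1-alone sites, or 32.9% (32.5 to 33.2%), although none had a POU5F1 peak with activin. The background was 48.5%. The share was 78.9% at POU3F1 peaks with any further factor and 99.2% at those with POU5F1 only. Of the 33217 peaks with a further factor, 23332 had been put in that class by a POU5F1 peak in EpiSCs, which the POU3F1-alone sites were chosen to lack, so that the choice itself sets these classes and the background apart and their shares are a description. A closer comparison is with POU3F1 peaks that overlapped SOX2 only, which likewise lacked POU5F1 in EpiSCs. There the share was 32.7%, which differed from the POU3F1-alone sites by 0.19 points with an interval of -1.15 to 1.496 that included 0. At peaks with OTX2 only it was 28.1%, lower than at the POU3F1-alone sites by 4.74 points (3.13 to 6.29). The SOX2-only peaks had a median score of 178.0 and width of 1019 bp, and the OTX2-only peaks 152.1 and 919 bp. Both were above the 138.6 and 888 bp of the POU3F1-alone sites. These 2 comparisons were not made between peaks of like score or width.

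**Figure D1:**
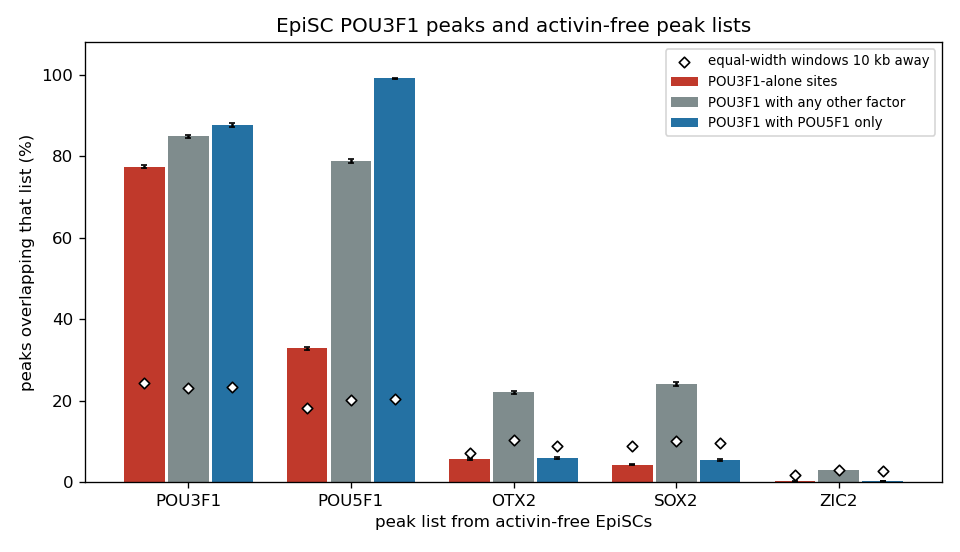
Share of EpiSC POU3F1 peaks (%, bars, with 95% Wilson intervals) that overlapped a peak of each activin-free list, for the 64559 POU3F1-alone sites, the peaks with any further factor and the peaks with POU5F1 only. Diamonds show windows of equal width 10 kb away; the POU3F1-alone sites reached 77.5% for POU3F1 and 32.9% for POU5F1, and at most 5.67% for the other lists.

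Windows of equal width 10 kb to either side of the POU3F1-alone sites served as local background. An activin-free POU5F1 peak lay in 18.3% of the 129118 windows. Some of these windows held EpiSC peaks of other factors, which the sites by definition did not. In the 105387 windows without ZIC2, OTX2, SOX2 or POU5F1 in EpiSCs the share was 11.3%, which was 21.6 points (21.16 to 21.98) below the sites. In the 84990 windows with none of the 5 factors it was 5.02%, and in the 20397 windows with a neighbouring POU3F1 peak and no further factor it was 37.4%. Without activin, POU5F1 peaks were thus more frequent at the sites, and at neighbouring POU3F1 peaks, than in the sequence between them. For POU3F1 itself the shares in these last 2 sets of windows were 3.91% and 84.9%.

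The activin-free POU5F1 list was also larger, with 126908 peaks compared with 62457 in EpiSCs, and its median score was 208.4 compared with 132.7. Of its 126751 peaks on the chromosomes used, 67002 did not overlap an EpiSC POU5F1 peak, and 29.5% (29.2 to 29.8%) of these overlapped a POU3F1-alone site. The share was 16.5% over the whole list and 1.87% at peaks with an EpiSC POU5F1 peak, which the choice of sites sets low. Peaks without an EpiSC POU5F1 peak had a median score of 105.7, compared with 597.4 for those with one. An EpiSC POU3F1 peak of any kind overlapped 43.65% of the former and 52.0% of the latter. When only the highest-scoring activin-free POU5F1 peaks were kept, in the number of the EpiSC list, 9.70% of the POU3F1-alone sites overlapped one, as did 64.6% of the POU3F1 peaks with any further factor and 89.0% of those with POU5F1 only. The size of the activin-free list, which moves with these shares, cannot be told apart from the culture. As a check of the labels, the peak of score 3100 that both POU5F1 lists had on Pou5f1 was matched by no peak on Pou3f1, and both POU3F1 lists showed the opposite.

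The activin-free POU5F1 peaks at POU3F1-alone sites had a median score of 134.8, compared with 673.4 at the peaks with POU5F1 only. Their midpoints lay a median of 149.5 bp from that of the POU3F1 peak, and 36.8% within 100 bp, compared with 126 bp and 42.1%. By score band of the POU3F1 peak, 23.5, 29.1, 36.3 and 48.2% of POU3F1-alone sites had such a POU5F1 peak. The share thus increased from the lowest to the highest band of POU3F1 score. The POU3F1 peaks with any further factor, most of them chosen by EpiSC POU5F1, had 67.5, 71.9, 78.02 and 88.5%. The median width of the POU3F1-alone sites also increased from band to band. It reached 1481 bp in the highest band, compared with 888 bp over all these sites. Overlap was counted from 1 bp, and wider peaks can meet another peak more often. Whether the share increased with score among sites of like width was not tested. Of the sites with an EpiSC POU5F1 peak up to 1 kb away, 47.9% (46.6 to 49.2%) had an activin-free POU5F1 peak, compared with 33.7% from 1 to 10 kb and 29.2% (28.7 to 29.7%) beyond 10 kb. The 30994 sites of this last group were 48.0% of all. The choice of sites used overlap with these EpiSC POU5F1 peaks, so the shares by distance are a description. Whether the same POU5F1 peaks, called wider without activin, reached the nearer sites was not tested.

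**Figure D2:**
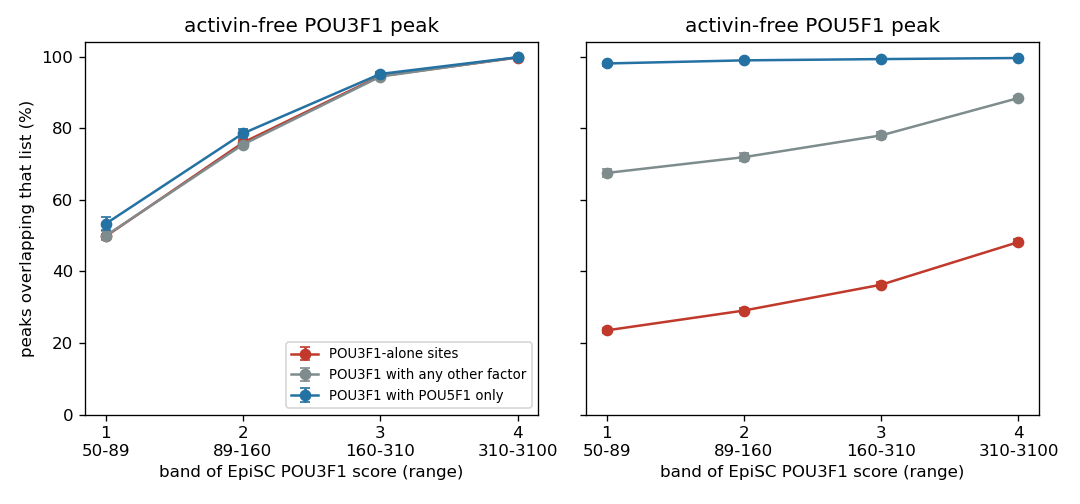
Share of POU3F1 peaks (%, with 95% Wilson intervals) that overlapped an activin-free POU3F1 peak (left) or POU5F1 peak (right), by band of EpiSC POU3F1 score. For POU3F1, the POU3F1-alone sites and the peaks with any further factor coincide in all 4 bands. For POU5F1, the POU3F1-alone sites increase from 23.5 to 48.2%, and the other classes were chosen wholly or mostly by EpiSC POU5F1. Median peak width also increases from band to band.

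Few POU3F1-alone sites had a peak of the other factors without activin, and here too the background holds peaks chosen by those factors in EpiSCs. For OTX2 it was 3660 sites, or 5.67%, beside a background of 11.2% and a share of 3.64% in windows without other factors in EpiSCs. For SOX2 it was 2764 sites, or 4.28%, beside a background of 11.0% and 3.82% in those windows. For ZIC2 it was 101 sites, or 0.156% (0.129 to 0.190%), beside a background of 1.11% and 0.277% in those windows. ZIC2 was thus less frequent at the sites than beside them, by -0.12 points (-0.16 to -0.08), and OTX2 more frequent by 2.03 points (1.82 to 2.24). By combination of lists, 28916 sites, or 44.8%, had POU3F1 alone again in activin-free cells, 16176 (25.1%) POU3F1 with POU5F1, 10115 (15.7%) no peak of any factor and 3097 (4.80%) POU5F1 without POU3F1. These combinations were counted at the POU3F1-alone sites only, so that no background over all eligible POU3F1 peaks stands beside them. The 10115 sites without any activin-free peak had a low median score, of 73.2, and a median width of 644 bp.

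The exact octamer ATGCAAAT, searched on both strands within 100 bp of the midpoint, was present at 2822 POU3F1-alone sites, or 4.37% (4.22 to 4.53%). The background over all eligible POU3F1 peaks was 4.88%. The share was 1.80% in windows of the same length 1000 bp to either side and 1.73% in all 200 bp tiles of the genome. At the POU3F1 peaks with POU5F1 only it was 6.48%, so that the POU3F1-alone sites differed by -2.11 points (-2.50 to -1.73), and at those with SOX2 only 3.65%. The octamer was thus 2.42 times as frequent at the sites as beside them, and more than 95 in 100 sites had none in the window. Its share in this window did not increase with score, being 4.59, 4.61, 4.19 and 4.09% from the lowest to the highest 4 equal groups of sites. Median peak width increased from 583 bp in the lowest to 1413 bp in the highest group, so that the fixed window covered less of the high-scoring peaks. Whether the share over whole peaks changed with score was not tested. Sites with an octamer had an activin-free POU5F1 peak somewhat more often, in 34.9% compared with 32.8% of cases, a difference of 2.15 points (0.37 to 3.96). Within the 4 groups by score the interval excluded 0 only in the highest, at 6.55 points (2.66 to 10.4).

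**Figure D3:**
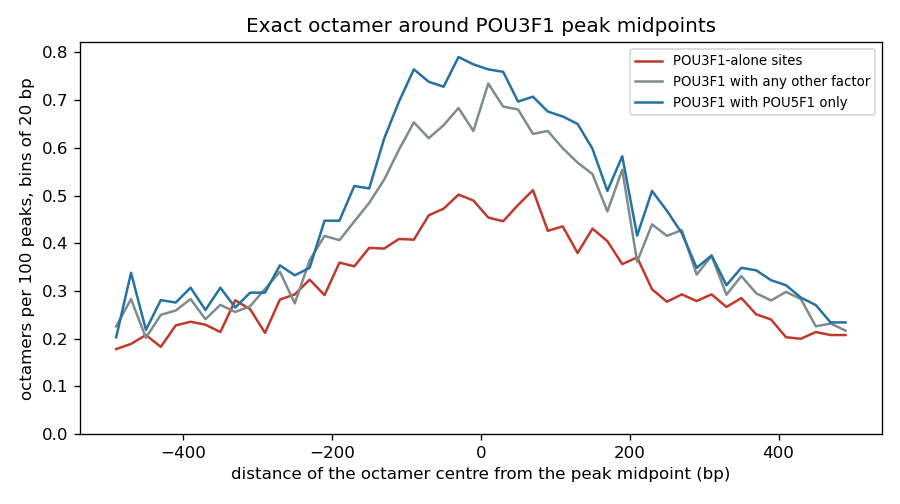
Number of exact octamers per 100 peaks in bins of 20 bp, by distance from the peak midpoint (bp), for the 3 classes of POU3F1 peaks. The POU3F1-alone sites lie between 0.41 and 0.51 per bin within 100 bp of the midpoint, below the peaks with POU5F1 only, which lie between 0.68 and 0.79.

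Close variants of the octamer were compared in the same way. ATGCATAT, the start of the palindromic site that a POU dimer can occupy, was present at 3.51% of POU3F1-alone sites, 1.65% of the windows beside them and 8.73% of POU3F1 peaks with POU5F1 only, a difference of -5.22 points (-5.65 to -4.80) between the 2 classes. The difference was smaller for ATGCTAAT, at 2.58% and 2.91% (-0.33 points, -0.61 to -0.07), and for ATGAATAT, at 5.01% and 6.47% (-1.46 points, -1.85 to -1.08). The background over all eligible POU3F1 peaks was 4.59% for ATGCATAT, 2.70% for ATGCTAAT and 5.16% for ATGAATAT. In the same order, peaks with SOX2 only had 2.85, 2.43 and 3.82%, and those with OTX2 only 2.86, 3.32 and 3.44%. Over all 200 bp tiles these 3 sequences were present in 1.30, 0.79 and 1.64%. A doubled ATGCAT was found at 22 POU3F1-alone sites, or 0.034%, beside a background of 0.063%. It was found at 32 of the fewer POU5F1-only peaks, a difference of -0.13 points (-0.20 to -0.08). ATGAAT followed at once by ATTCAT was found at 37 POU3F1-alone sites, or 0.057%, and in 8 windows beside them, which is 9.25 times the share. Its background over all eligible POU3F1 peaks was 0.051%. Its share at the POU5F1-only peaks was 0.042% and did not differ detectably from the sites (0.016 points, -0.028 to 0.046). These are counts of letters and do not show that a site is used.

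Among all 8-base sequences present in at least 1% of POU3F1-alone windows, 5846 when both strands are counted as 1, the octamer ranked 25th by its ratio to the windows beside the sites. The 10 highest were ATTATGCA, AATTATGC, TTATGCAA, ATTATTCA, ATGCATAA, ATTAATGC, GCTAATTA, TATGCAAA, TGCATAAA and ATGCATTA, with ratios from 3.04 to 2.58. Several overlap one another and the octamer, so that 1 stretch of DNA can count for more than 1 of them. ATTATGCA was present at 2.74% of sites and in 0.90% of the windows beside them. Sequences this rich in A and T are in general more frequent at the sites, and the 2847 sequences with 2 G or C bases had a median ratio of 1.31. Each of the 10 was less frequent at POU3F1-alone sites than at POU5F1-only peaks, or did not differ detectably, except ATTAATGC. It was present at 1.75% and 1.49% of peaks, a difference of 0.26 points (0.05 to 0.45). The 10 were chosen by their shares at the POU3F1-alone sites, which favours these sites in this comparison. The difference for ATTAATGC is therefore a description, with no allowance for the number of sequences compared. Over all 5846 sequences, the median ratio of the share at POU3F1-alone sites to that at POU5F1-only peaks was 1.075. TAAT, a core bound by homeodomains, was held on either strand by 6 of the 10, among them 2 that were less frequent at the POU3F1-alone sites. The interval lay below 0 for 5 of the 10, with the largest difference for TATGCAAA, at 3.57% and 5.16%.

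The sequences searched for SOX2 and OTX2 were near their local level, and none was searched for ZIC2. ACAAAG, the core recognised by SOX proteins, was present at 17.6% of POU3F1-alone sites and 18.6% of the windows beside them. GGATTA, recognised by OTX2, was present at 8.52% and 7.83%. The backgrounds over all eligible POU3F1 peaks were 17.9% and 8.56%. Stretches of at least 20 bp of strictly alternating purine and pyrimidine bases differed more. They lay in 2.32% of POU3F1-alone windows, in 4.09% of the windows beside them, in 3.80% of genome tiles and in 11.3% of POU5F1-only windows, beside a background of 4.22%. Peaks with SOX2 only and with OTX2 only, which likewise lacked POU5F1 in EpiSCs, had still lower shares, of 1.72% and 1.31%. A share below the background was thus not particular to the POU3F1-alone sites. That background holds the POU5F1-only peaks, which the choice of sites removed. Within the POU3F1-alone sites, they were present in 3.59% of those with an activin-free POU5F1 peak and 1.70% of those without, a difference of 1.89 points (1.62 to 2.17).

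The sites were rich in A and T. The mean GC content of their 200 bp windows was 32.7% ± 5.01 (SD over 64559 sites), compared with 38% ± 7.24 in the windows 1000 bp away and 32.9% ± 5.30 at POU5F1-only peaks. Sites with an activin-free POU3F1 peak had 32.2%, and those without 34.4%. No CpG dinucleotide was present in 47.0% of the windows. Over all eligible POU3F1 peaks the background was similar, with a mean GC content of 32.9% and no CpG in 46% of windows.

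At larger scale the sites were concentrated in regions of low GC content. The genome was divided into 2565 segments of 1 Mb, with a median of 15 sites, a highest value of 133 and no site in 251 segments. When segments were ordered by GC content into 5 groups of 513, the mean number per segment fell from 61.4 in the lowest to 1.84 in the highest group, and the lowest group held 48.9% of all sites. POU3F1 peaks with a further factor also became fewer, from 21.7 to 2.65 per segment. The share of POU3F1-alone sites among eligible peaks fell from 73.8% (73.4 to 74.3%) to 41.0% (39.0 to 43.0%). This share, and any contrast between the 2 classes, depends on where the further factors had EpiSC peaks, which the choice of sites used. Both are given as a description. Across segments, Spearman's coefficient with GC content was -0.84 for the sites and -0.62 for the peaks with a further factor, as a description over segments that are not independent. ChIP-seq and mapping can themselves depend on GC content, and this was not tested here.

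**Figure D4:**
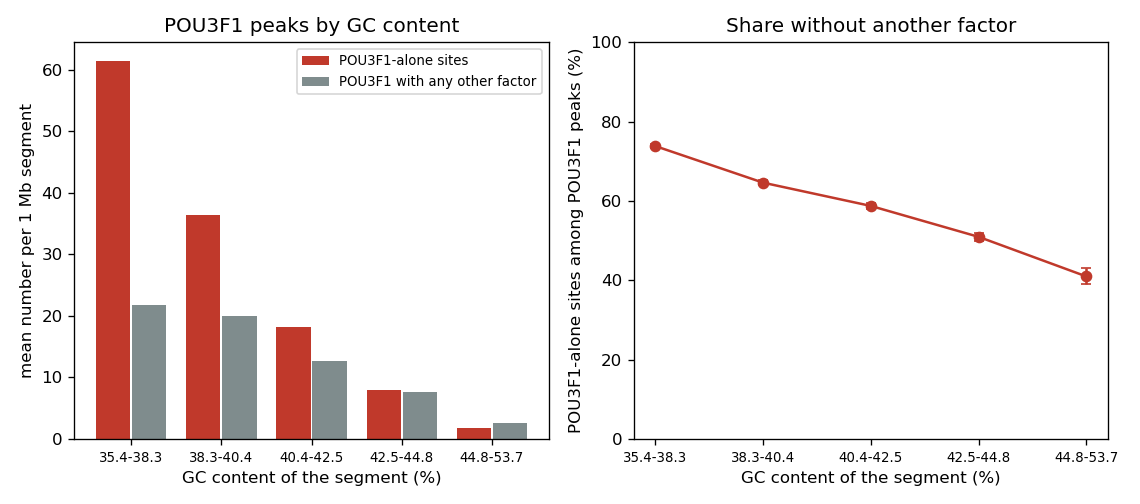
Left, mean number of POU3F1-alone sites and of POU3F1 peaks with any further factor per 1 Mb segment, in 5 groups of segments by GC content (%). Right, share of POU3F1-alone sites among these peaks (%, with 95% Wilson intervals), which fell from 73.8% in the lowest to 41.0% in the highest group. The share is a description, as the choice of sites used the peaks of the further factors.

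Among the chromosomes, X had the highest share of POU3F1-alone sites, 77.7% (76.7 to 78.6%) of 6924 eligible peaks, with 32.3 sites per Mb, and chromosome 19 the lowest, 58.4% (56.2 to 60.7%). Here too the share depends on the peaks used to choose the sites and is a description. The share of sites with an activin-free POU5F1 peak ran from 30.8% on chromosome 2 to 38.1% on chromosome 19. Sites lay close to other POU3F1 peaks, with a median of 2.81 kb to the nearest POU3F1 midpoint and 70.0% within 5 kb. The background over all eligible POU3F1 peaks was similar, at 2.91 kb and 68.55%.

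Relative to genes, 41096 sites, or 63.7%, were intergenic, 33.0% lay in introns of protein-coding genes and 1.78% in exons. The background over all eligible POU3F1 peaks was near these values, at 60.7, 35.75 and 1.945%. A transcription start site lay within 50 kb of 45.3% (44.9 to 45.7%) of the sites, beside a background of 47.8%, and within 1 kb of 1.75%. The share within 50 kb was 49.9% for POU5F1-only peaks, so that the POU3F1-alone sites differed by -4.58 points (-5.38 to -3.78), and 65.4% for OTX2-only peaks. The median distance to a start site was 60.1 kb, compared with 44.8 kb for POU3F1 peaks with any further factor.

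At least 1 site lay in or within 50 kb of 8235 of 22350 protein-coding genes, a background of 36.8%. The genes with the most sites were very long. They included Dmd, encoding dystrophin of muscle and brain, with 249 sites, the lipoprotein receptor gene Lrp1b with 199, the synaptic adhesion gene Il1rapl1 with 157 and the receptor phosphatase gene Ptprd with 157. Others were the neurexin family gene Cntnap2 with 140, Lingo2 with 140, the sarcoglycan gene Sgcz with 138, the synaptic scaffold gene Dlg2 with 133 and the glypican gene Gpc5 with 132. Dmd with its flanks spans 2.36 Mb, and its 249 sites were part of 306 eligible POU3F1 peaks, with an activin-free POU5F1 peak at 120 of them. By length, Dmd had 105.6 sites per Mb and Cntnap2 59.8.

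Of 25 neuronal adhesion and synapse genes, a list made when dense POU3F1 binding at such long genes was already known, all 25 had a site, with a median of 83 and 65.7 sites per Mb in sum, compared with 14.1 per Mb over all protein-coding genes and 24.5 per Mb over the chromosomes used. Of 19 matched genes of the neural plate, the tissue that activin-free EpiSCs approach, 8 had a site, which is 42.1%, and the sites came to 10.1 per Mb. There were 4 sites each at Pou3f2, a close relative of Pou3f1, and Zic1. Of 20 pluripotency genes 4 had a site, with 5 at Lin28b, an RNA-binding regulator of let-7, 4 at Fgf5, a marker of the epiblast after implantation, and 4 at Rif1, and 5.58 per Mb. Of 15 genes with a POU symbol 7 had a site, with 10 at Pou1f1 of the pituitary, 9 at Pou3f4 and 6 at Pou4f1, and 18.96 per Mb. Of 78 ribosomal protein genes 11 had a site, with 4 at Rps3a, 3 at Rps27a and 2 at Rpl24, and 2.21 per Mb. Neural plate, pluripotency and ribosomal genes thus had fewer sites per Mb than all protein-coding genes in sum. The neuronal adhesion and POU genes had more, and these differences were not tested. Of eligible POU3F1 peaks, summed alike, 2216 of 3192 were sites at neuronal adhesion genes and 45798 of 75127 over all protein-coding genes. Counts were 21 of 42 for neural plate, 14 of 41 for pluripotency, 40 of 71 for POU and 18 of 40 for ribosomal genes. The high density at neuronal adhesion genes was thus shared by POU3F1 peaks in general. Its 65.7 sites per Mb lay near the 61.4 per 1 Mb segment of the lowest group by GC content. The GC content around these genes was not measured, and whether it bears on their density was not tested.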

How the data were processed

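The deposited lists of peaks (positions and a score per peak) were made by the authors from reads aligned with Bowtie2 to mm9, and MACS was run with an EpiSC input as reference. For the activin-free lists the input is not given in the sources used here. The deposited score is -10 log10 of the p-value. As the lists hold no reads, library depth could not be given. Groups were taken from the sample labels, with 1 library for each of 5 factors in EpiSCs and in activin-free EpiSCs, and there was no replicate.

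POU3F1-alone sites were EpiSC POU3F1 peaks of at most 2000 bp on chromosomes 1 to 19 and X without a shared base with the other 4 EpiSC lists. Overlap was counted from 1 bp. Sequence was read from the genome of the same build as the deposited positions (NCBIM37), and genes and 86803 distinct start sites were taken from GENCODE vM1. Exact matches on both strands were counted in the 200 bp around peak midpoints. Positions are counted from 1. Shares and differences carry Wilson and Newcombe intervals, and no p-value was computed across peaks. The overlap, motif and interval steps were tested on simulated lists and sequence, and the overlap also against bedtools.

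The sites, gene lists and tests were chosen with earlier results of these data known. Named regions were the 10 highest-scoring sites, at most 1 per Mb. Sequences were printed for the highest-scoring sites of each kind, leaving out chromosome 18. Named genes were the 10 protein-coding genes with the most sites and the first 3 of each list, and named short sequences the 10 with the highest ratio to the windows 1000 bp away. Of the 20 neural plate genes 19 were matched. Some genes that these rules would name are not reported here. Wide peaks, other sequences and the input library were not analysed here. Alternatives comprised other limits on score, width and overlap, other windows and other start sites. Calculations used Python 3.11.15, numpy 2.4.6, scipy 1.17.1 and matplotlib 3.10.9.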

Additional observations from a re-analysis of the deposited data

How the results depend on the processing

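No paired analysis was possible because each factor had 1 library in each culture. Of 40 alternatives, 38 planned and 2 added after the values were seen, 7 gave a value within the counting interval, or for the number of sites within 1.5 times, and 33 moved it. Limiting POU3F1 peaks to a score of at least 100 left 42074 sites, with 90.8% for activin-free POU3F1, 37.4% for activin-free POU5F1, a GC content of 32.1% and 43.6% within 50 kb of a start site. A width of at most 1000 bp left 38865 sites, with 66.0, 26.7, 33.5 and 47.1% and an octamer at 4.82%. When only a reciprocal overlap of 50% with a further factor removed a peak, these values were 77.8, 36.7, 32.7 and 46.4%. When a further factor within 1000 bp removed it, POU5F1 was 31.4%, GC content 32.6% and the start-site share 44.1%. For activin-free POU3F1 the share was 61.0% with activin-free scores of at least 100, 36.0% with the 50000 highest-scoring activin-free peaks, 64.8% with reciprocal overlap and 60.7% with midpoints within 250 bp. For activin-free POU5F1 these gave 21.5, 5.61, 24.4 and 22.1%. With activin-free POU5F1 peaks in the number of the EpiSC list the share was 9.70%, and on autosomes 32.5% (both added). Octamer windows of 50 and 250 bp on either side and the whole peak gave 2.16, 9.44 and 14.5%, the GC content of the whole peak was 33.8%, and protein-coding start sites alone gave 27.4%. Shares in activin-free lists thus depended strongly on how many activin-free peaks were kept, and 1 library per factor gives no error for that number.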
